A study of Mus musculus with 12 samples.

Results

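This comparison set germ cells whose TET1 enzyme is described as stalling at 5-hydroxymethylcytosine (group V, genotype Tet1V/V) against germ cells without Tet1 (group KO, genotype Tet1-/-). It used the 3 libraries titled V and the 3 titled KO, 6 of the 12 in the series, and every gene in the count table. All 12 libraries were made from primordial germ cells, from which eggs and sperm later form, taken from female mouse embryos at stage E14.5. An Oct4-GFP reporter, active in germ cells at this stage, was used to sort them, and a library started from the RNA of 5000 cells. The remaining libraries were wild type (WT, 3 libraries) and catalytically dead Tet1HxD/HxD (HxD, 3 libraries), and they entered the fit and are quoted beside the results. Strain, the number of embryos pooled, and the part of Tet1 that the knockout removes were not given in the sources used here. The labels also leave out whether replicates were separate embryos or litters, so the p-values speak only of library-to-library spread, and part of that may be technical.

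TET1 oxidises 5-methylcytosine in DNA to 5-hydroxymethylcytosine and, in further steps, to 5-formylcytosine and 5-carboxylcytosine, which thymine DNA glycosylase can remove. Primordial germ cells lose most of their DNA methylation, and many germline genes whose CpG-rich promoters are methylated in other cells become active in them. In females these cells then leave mitosis and enter meiosis under retinoic acid and BMP signals. V against KO asks which transcripts differ between cells with an enzyme that can take the first oxidation step and cells with no enzyme.

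Levels are in CPM, that is counts divided by a TMM-adjusted library total and put on a common scale, and differences are log2 fold changes of V over KO with their standard error (SE), from 1 edgeR quasi-likelihood fit of all 12 libraries. Total counts ranged from 18471158 to 29495313 per library. The 3 V libraries held a count for 15890, 14075 and 17334 genes and the KO libraries for 13879, 17356 and 12568. Of 2936 genes with a mean of 1 to 5 CPM, 9.81%, 24.4% and 2.08% were at 0 in the V libraries, and 27.1%, 2.59% and 45.7% in KO, so the share at 0 differed widely within both groups (exact permutation test, two-sided, p = 0.4, with 0.1 the smallest possible). The summed level of 10 germ cell markers was 3466.8, 2974 and 3520.7 CPM in V and 3556, 3190.2 and 3219 in KO, and all 10 were detected in both groups. Ranges of the summed markers of other cells were 17.2 to 73.9 CPM in V and 22.2 to 28.1 in KO for granulosa cells, 6.8 to 16.6 and 3.1 to 16.4 for stroma, and 30.8 to 45.7 and 32.4 to 53.6 for surface epithelium. They were 13 to 19 and 12.8 to 19.9 for endothelium, 1.0 to 37.4 and 1.4 to 5.0 for macrophages, 0 to 1.4 and 0.5 to 36.3 for red blood cells, and 6.0 to 8.1 and 2.9 to 10.3 for the male gonad. Of the V libraries, V1 had the highest granulosa, stroma, macrophage and male gonad sums (73.9, 16.6, 37.4 and 8.1 CPM). It had the lowest surface epithelium and endothelium sums (30.8 and 13 CPM). Upk3b (surface epithelium), Tie1 (endothelium), Hbb-bt (red blood cells) and Eif2s3y and Uty (male) were at 0 in all 6 libraries. The part of these cells in the differences below was not tested. In bulk samples fewer cells of a type and less RNA per cell cannot be told apart.

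The targeted gene, Tet1, had 225.7, 197.0 and 192.0 CPM in the V libraries and 130.7, 158.3 and 80.8 CPM in KO. Every V library lay above every KO library, with a log2 difference of 0.73 ± 0.24 (SE), a 95% interval of 0.24 to 1.23 and an edgeR adjusted p of 0.945 (n = 3). It was at 91.4, 180.1 and 215.0 CPM in WT and 227.0, 221.7 and 285.8 CPM in HxD. The counts cover the whole gene, and transcripts that lack a deleted part are still counted, so these values do not check the KO labels. Tet2, a related dioxygenase, was at 37.7, 37.1 and 41.2 CPM in V and 55.5, 56.1 and 24.3 in KO, and Tet3 was at 6.80, 11.3 and 2.90 CPM in V and 4.23, 5.13 and 8.50 in KO, with overlapping groups for both.

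No gene passed the test between V and KO: 0 of 16166 genes tested (0%) had an edgeR adjusted p under 0.05. At an unadjusted p under 0.05 there were 747 genes (4.62%), 372 higher in V and 375 higher in KO. DESeq2 called 14 genes higher in V and 5 higher in KO, all of them under 5 CPM in both groups, and limma-voom called 0. All 3 V libraries lay above all 3 KO libraries for 1001 genes (6.19%), and all 3 KO libraries lay above all 3 V libraries for 796 (4.92%). The median log2 difference over all genes tested was 0.03. For scale, the same fit called 197 genes in KO against WT (1.22%; 117 higher and 80 lower) and 25 in V against WT (0.155%; 11 higher and 14 lower). Those comparisons share libraries with V against KO, and V against KO is itself the test of whether the 2 mutants differ.

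The size of difference that could have been seen was limited. Among 10670 genes at 5 CPM or more in either group mean, the median SE of the log2 difference was 0.28 and the median half-width of its 95% interval was 0.57. The median size of the difference itself was 0.23, and 448 of these genes had a log2 difference beyond 1 in either direction, 220 towards V and 228 towards KO. Pairs of V and KO libraries differed by a median absolute log2 value of 0.285 to 0.420 per gene. Pairs within V differed by 0.230 to 0.326 and pairs within KO by 0.307 to 0.397. The median over pairs of V and KO libraries, 0.334, lay within the range of the KO pairs and above every V pair. The absence of called genes therefore does not show that V and KO cells had the same transcripts.

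**Figure D1:**
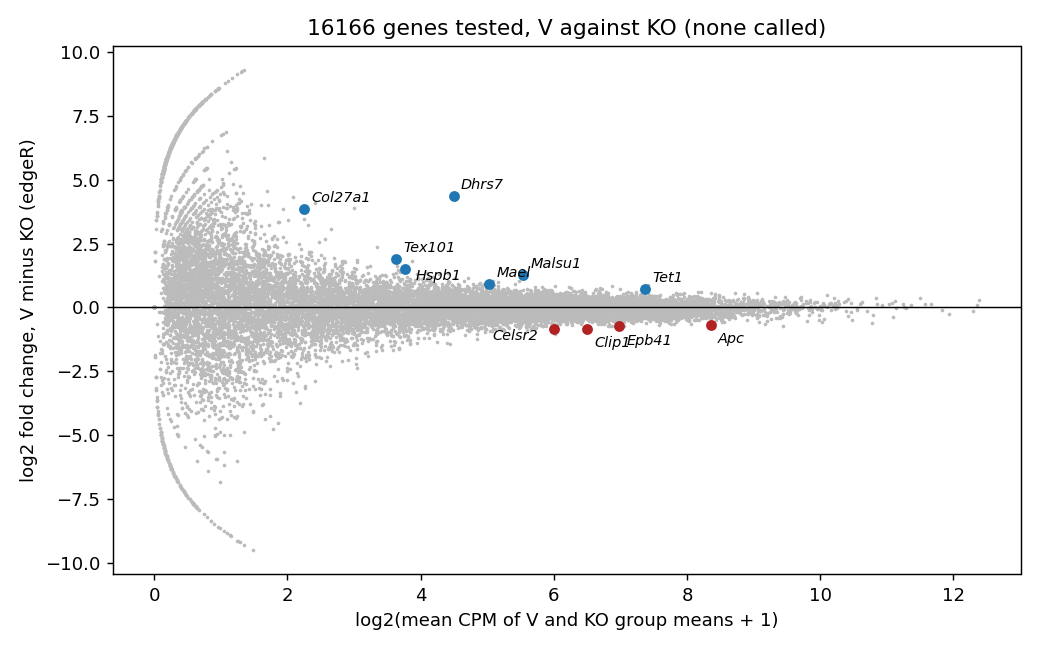
Each point is 1 of the 16166 genes tested, with the log2 of its mean level in V and KO (CPM plus 1) on the horizontal axis and the edgeR log2 fold change of V over KO on the vertical axis. Blue and red points name genes that lay above and below 0; none was called, and Dhrs7, at a log2 difference of 4.36, stands apart from genes of a similar level.

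Dhrs7 came closest to the threshold. It encodes a short-chain dehydrogenase/reductase of the endoplasmic reticulum, a family whose members act on retinoids and steroids. Dhrs7 was at 32.0, 58.8 and 32.3 CPM in the V libraries against 0, 1.57 and 4.45 CPM in KO. Every V library lay above every KO library, and the log2 difference was 4.36 ± 0.76, with a 95% interval of 2.81 to 5.91 (edgeR, adjusted p = 0.0562, n = 3). Levels were 5.94, 21.2 and 17.6 CPM in WT and 22.6, 54.9 and 23.0 CPM in HxD. KO libraries were below every other library, and the gene was called lower in KO against WT (log2 -2.90; edgeR, adjusted p = 0.0395) and not called in V against WT (log2 1.46; edgeR, adjusted p = 0.478). Whether Dhrs7 passes between V and KO turned on the fit. It was called under 14 of the 24 alternative settings, among them 11 of the 12 fits that left out 1 library. It was not called without V2 (edgeR, adjusted p = 0.148), by DESeq2 (adjusted p = 0.138) or by limma-voom (adjusted p = 0.782). Nor was it called with DESeq2 size factors in edgeR, upper quartile normalization or a mean of at least 5 CPM. The same held for limma-voom with quality weights, V and KO libraries only, genes with a count as covariate, and the transcript length trend removed.

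After Dhrs7 the smallest edgeR adjusted p was 0.945, and every gene named below had an adjusted p of 0.945 or more between V and KO in the fit of all 12 libraries. Tex101, a surface glycoprotein of germ cells, was at 7.47, 26.9 and 19.4 CPM in V and 2.14, 5.30 and 7.22 in KO. Every V library lay above every KO library, with a log2 difference of 1.88 ± 0.48 and a 95% interval of 0.91 to 2.86. Tex101 was called under 3 of the 24 alternative settings. Among them were edgeR with no filter on low counts (adjusted p = 0.000355) and edgeR without V1 (adjusted p = 0.0405). In WT Tex101 was at 154.8, 60.4 and 40.1 CPM, and it fell in both mutants against WT, by 2.24 on the log2 scale in V and by 4.12 in KO (edgeR, adjusted p = 0.0467 and 6.03e-05). Mael, which encodes a component of the piRNA pathway that silences transposons, showed the same order at higher levels. It was at 30.8, 27.7 and 65.6 CPM in V and 17.7, 25.7 and 22.1 in KO, with a log2 difference of 0.92 ± 0.27 and a 95% interval of 0.37 to 1.48. Every V library lay above every KO library, although V1 and V2 were near the KO values. WT libraries were at 211.2, 153.8 and 143.5 CPM, and Mael fell by 2.03 in V and 2.96 in KO against WT (edgeR, adjusted p = 0.000755 and 7.21e-07).

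TET1 acts on cytosines next to guanine, so the CpG sites of these 3 promoters are shown; the genes were chosen after their values were seen. Each run is 250 bases before to 50 bases after the start from the RefSeq table (GRCm38.p6), on the minus strand, which holds the gene, with every CpG in capitals. No methylation was measured in these libraries.
Dhrs7, chr12:72664779-72665078: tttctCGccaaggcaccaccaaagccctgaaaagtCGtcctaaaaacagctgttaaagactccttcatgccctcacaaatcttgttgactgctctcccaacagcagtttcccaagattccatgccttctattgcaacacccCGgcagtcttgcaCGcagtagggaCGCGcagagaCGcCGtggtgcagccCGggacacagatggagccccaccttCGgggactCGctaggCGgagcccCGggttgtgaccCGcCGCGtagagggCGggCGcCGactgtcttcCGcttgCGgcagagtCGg
Tex101, chr7:24672001-24672300: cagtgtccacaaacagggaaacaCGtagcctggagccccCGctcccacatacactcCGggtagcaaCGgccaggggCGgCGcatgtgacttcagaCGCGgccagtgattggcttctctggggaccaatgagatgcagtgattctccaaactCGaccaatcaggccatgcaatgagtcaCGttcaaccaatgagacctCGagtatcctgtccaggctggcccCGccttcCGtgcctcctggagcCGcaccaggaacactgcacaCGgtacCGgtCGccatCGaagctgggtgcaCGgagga
Mael, chr1:166238695-166238994: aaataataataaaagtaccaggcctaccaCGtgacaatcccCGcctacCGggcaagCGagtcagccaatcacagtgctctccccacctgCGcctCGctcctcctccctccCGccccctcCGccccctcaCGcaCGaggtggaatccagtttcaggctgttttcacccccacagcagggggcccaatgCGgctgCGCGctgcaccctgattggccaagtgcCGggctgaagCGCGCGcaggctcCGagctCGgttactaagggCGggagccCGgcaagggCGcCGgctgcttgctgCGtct
The 3 windows hold 22, 19 and 24 CpG sites, against a median of 7 over the 32851 promoters of the table, of which 76.9%, 71.9% and 80.0% hold fewer. The Mael window holds 1 match to CACGTG, the E-box bound by MYC- and MGA-type factors, which 7.15% of promoters hold on either strand, and 2 to TCCCGC, the E2F6-type motif, which 19.98% hold. Neither motif occurs in the Dhrs7 or Tex101 window, and CCTCAG, the STRA8-type motif, which 26.8% of promoters hold, occurs in none of the 3.

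Malsu1, which encodes a factor in assembly of the mitochondrial ribosome, was at 55.1, 94.1 and 43.0 CPM in V and 29.9, 23.7 and 26.9 in KO (log2 1.26 ± 0.29). Every V library lay above every KO library, and KO was also below WT (87.8, 43.4 and 52.0 CPM). Malsu1 was called under 2 of the 24 alternative settings, among them edgeR with no filter on low counts (adjusted p = 0.0106). Malsu1 overlaps Igf2bp3 on the opposite strand in GENCODE M21 and the strand setting of the counting is not given, so its reads are uncertain. Col27a1, a collagen gene, was at 4.04, 10.9 and 6.27 CPM in V and 0, 1.45 and 0 in KO (log2 3.86 ± 1.16), in the range where the shares at 0 differed between libraries. Without KO2, the KO library that held its counts, it was called by edgeR (adjusted p = 0.00243). The 10 genes of smallest p with separate groups and at least 5 CPM in a group mean were Dhrs7, Tex101 and Malsu1, then Stmn1, a microtubule-destabilising protein (log2 0.74 ± 0.21; 121.6, 151.2 and 111.6 CPM in V and 75.1, 74.2 and 80.2 in KO), Fis1, which acts in mitochondrial fission (log2 0.72 ± 0.20; 125.5, 139.5 and 125.7 CPM in V and 79.7, 61.9 and 96.0 in KO), and Ier5l (log2 1.01 ± 0.29), all higher in V, and 4 genes higher in KO.

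Those 4 genes have long transcripts. Clip1, which tracks growing microtubule ends, was at 71.7, 58.7 and 62.6 CPM in V and 110.0, 129.1 and 106.7 in KO (log2 -0.84 ± 0.21). Celsr2, an adhesion receptor with cadherin repeats, was at 44.1, 48.7 and 41.6 CPM in V and 73.8, 90.3 and 78.4 in KO (log2 -0.85 ± 0.23). Epb41, a protein of the membrane skeleton, had a log2 difference of -0.74 ± 0.19, and Apc, a negative regulator of Wnt signalling, one of -0.67 ± 0.18. Their longest annotated transcripts run from 6133 bases (Clip1) to 12811 (Apc), against a median of 3500.5 over the tested genes at 5 CPM or more. Stmn1 and Fis1, higher in V, are at 1060 and 948 bases.

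**Figure D2:**
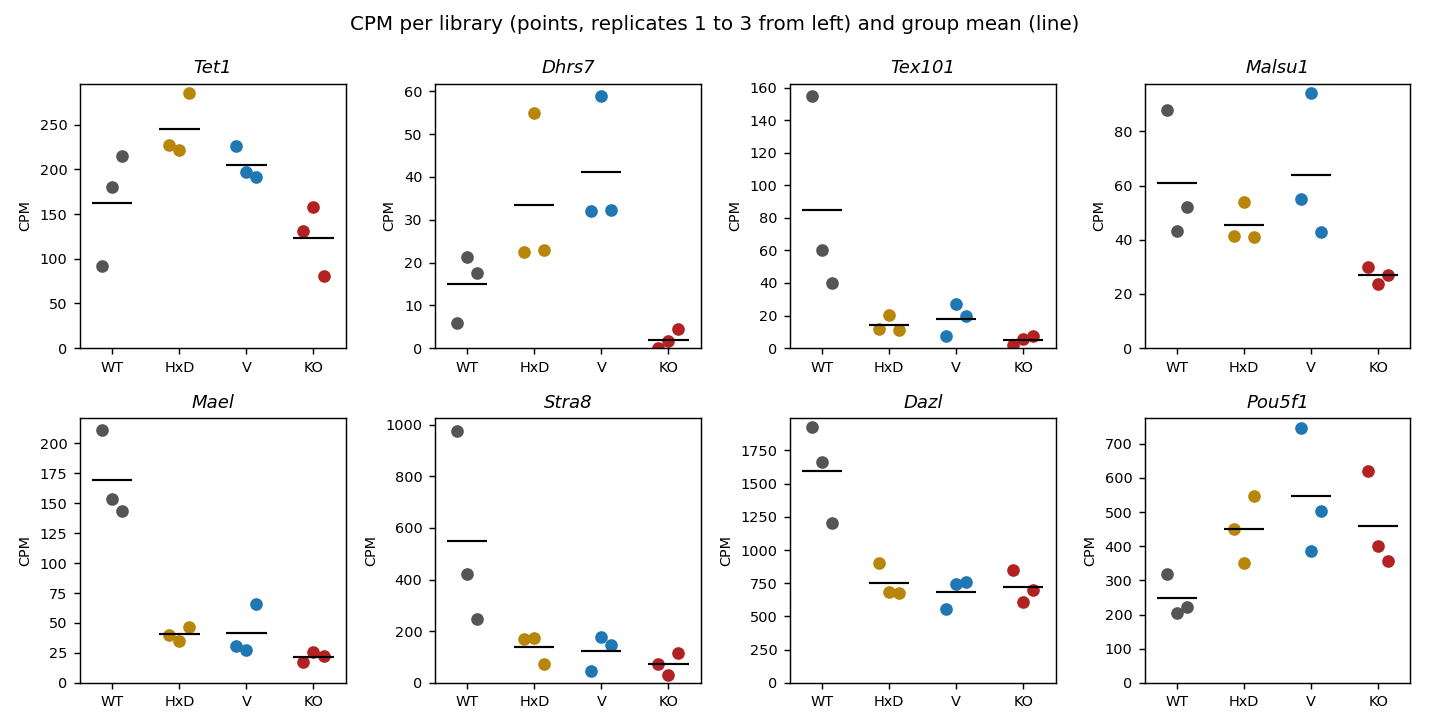
CPM of 8 genes in each of the 12 libraries, as points, with the group mean as a line; replicates 1 to 3 run from left to right. In the panels of Tet1, Dhrs7, Tex101, Malsu1 and Mael every V point lies above every KO point, and in those of Stra8, Dazl and Pou5f1 the V and KO points overlap.

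Transcript length moved with the difference among the better expressed genes. The genes averaging 5 CPM or more over the 12 libraries were split by length into 5 groups of 2010. The median log2 difference of V over KO was 0.14 in the shortest group, 0.07, 0.00 and -0.05 in the next ones, and -0.18 in the longest. In the shortest group V lay wholly above KO for 11.8% of genes and KO above V for 1.39%. In the longest group these shares were 2.09% and 13.4%. Of the 100 genes with the smallest p, the 48 higher in V had a median length of 2103 bases and the 52 higher in KO one of 8048.5. A length index, the median of log2(CPM + 1) relative to the mean of all libraries in the longest group minus that in the shortest, was -0.26, -0.01 and -0.28 in V and 0.08, 0.41 and -0.16 in KO. KO2 was the highest and the groups overlapped (exact permutation test, two-sided, p = 0.2, with 0.1 the smallest possible). WT libraries were at -0.34, 0.19 and 0.12 and HxD at 0.15, -0.13 and 0.14, so libraries of 1 genotype spanned as much as the groups. The part of RNA quality or library preparation in this trend was not tested.

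**Figure D3:**
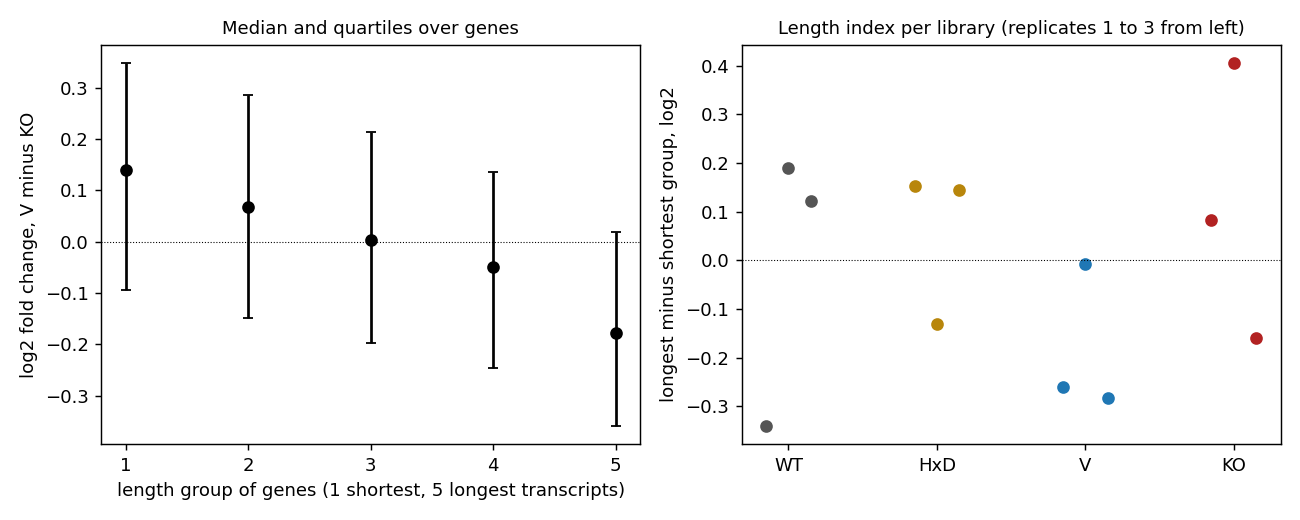
Left, the median (point) and quartiles (bars) of the edgeR log2 fold change of V over KO over the 2010 genes in each of 5 groups by transcript length; medians run from 0.14 in the shortest to -0.18 in the longest. Right, the length index of each of the 12 libraries on a log2 scale, where KO2 is the highest at 0.41 and WT1 the lowest at -0.34.

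Meiotic entry genes overlapped between V and KO throughout. None of the 11 tested members was called, in none did the groups separate, and their median log2 difference was 0.27, against 0.03 over all genes. Over all genes V lay above KO in 6.19% and KO above V in 4.92%, so 0 of 11 says little about this list. The median was 0.44, 0.11 and 0.55 without KO1, KO2 or KO3, and 0.47, 0.21 and 0.14 without V1, V2 or V3. Stra8, the retinoic acid target that starts the meiotic programme, was at 45.8, 177.2 and 145.2 CPM in V and 73.9, 32.2 and 114.5 in KO (log2 0.74 ± 0.42). The groups overlapped, with V1 below KO1 and KO3. WT libraries were at 977.1, 423.0 and 247.1 CPM and HxD at 168.8, 174.8 and 74.6 CPM, and Stra8 fell in both mutants against WT, by 2.16 in V and 2.90 in KO on the log2 scale (edgeR, adjusted p = 0.0338 and 0.000907). Meiosin (Gm4969 in the table), the partner of STRA8, was at 9.38, 25.5 and 27.2 CPM in V and 9.92, 14.2 and 4.75 in KO (log2 1.11 ± 0.42), with overlapping groups. V1 was again the V library nearest to KO. Rec8, the meiotic cohesin, was at 119.3, 220.9 and 219.1 CPM in V and 159.3, 96.0 and 221.8 in KO (log2 0.23 ± 0.26). Not all members leaned towards V: 8 were positive and 3 negative, with log2 differences from -1.92 to 1.11. Tex15, also on the list, was negative in all 24 alternative settings, from -0.58 to -0.15. In KO against WT, 5 of the 11 were called lower (edgeR), beside 80 of all 16166 genes tested. In V against WT, 2 were called lower, beside 14 of 16166. Those counts come from comparisons that share WT.

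Genes of the synaptonemal complex and the chromosome axis also overlapped, with none of 13 separate between groups and a median of 0.27. The shares over all genes were 6.19% with V above and 4.92% with KO above. The median was 0.11 without KO2, 0.44 without KO1 and 0.44 without V1, and 0.81 with KO2 as the only KO library. Sycp3, an axis protein, was at 20.7, 43.0 and 45.7 CPM in V and 17.4, 9.81 and 39.3 in KO (log2 0.72 ± 0.43). Sycp1, which joins the axes of paired chromosomes, was at 38.5, 28.4 and 83.5 CPM in V and 87.1, 33.3 and 46.3 in KO (log2 -0.15 ± 0.33), and Sycp2, another axis protein, at 3.59, 31.0 and 13.99 CPM in V and 11.3, 5.51 and 10.7 in KO (log2 0.82 ± 0.49). KO2 had the lowest Stra8, Sycp3 and Sycp2 of the KO libraries. Sycp1 fell by 2.28 in V and 2.13 in KO against WT (edgeR, adjusted p = 0.00214 and 0.00162).

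Of 36 tested genes of meiotic recombination, V lay above KO in 5 (13.9%, against 6.19% of all genes) and KO above V in 1 (2.78%, against 4.92%). The median was 0.23, and it was 0.15 without V2 and 0.08 without V3. Among the 5 were Dmc1, a recombinase that pairs broken DNA with its template, Spo11, which makes the breaks, Zcwpw1, a histone reader at break sites, and Msh5, a crossover factor. Dmc1 was at 41.2, 49.8 and 57.5 CPM in V and 40.7, 36.3 and 31.8 in KO (log2 0.45 ± 0.25), against 155.8, 82.5 and 80.3 in WT. Spo11 was at 19.99, 23.9 and 18.4 CPM in V and 14.95, 14.45 and 11.6 in KO (log2 0.60 ± 0.46), and Zcwpw1 at 185.2, 192.2 and 188.2 CPM in V and 180.4, 146.7 and 115.1 in KO (log2 0.36 ± 0.19). The log2 difference of Msh5 was 1.37 ± 0.91. Brca2, which acts in loading recombinases, was lower in V, at 166.1, 190.4 and 197.9 CPM against 264.4, 327.1 and 222.4 in KO (log2 -0.55 ± 0.18), and its longest transcript is 10724 bases.

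Cohesin genes had a median of -0.16 over 16 genes, and of -0.10 without KO2. V lay above KO in none (6.19% over all genes) and KO above V in 2 (12.5%, against 4.92%). These were Nipbl, the cohesin loader (189.6, 178.9 and 187.2 CPM in V and 235.3, 275.4 and 208.8 in KO, log2 -0.37 ± 0.16), and Pds5a, which regulates cohesin on DNA (280.7, 290.3 and 247.4 CPM in V and 325.0, 409.0 and 331.7 in KO, log2 -0.38 ± 0.18). With the length trend removed the median of the list was -0.06. Smc1b, a meiotic cohesin subunit, was at 325.6, 384.1 and 512.6 CPM in V and 593.8, 351.1 and 425.8 in KO (log2 -0.17 ± 0.21), with overlapping groups.

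Germline genes with promoters methylated in the soma are the class in which loss of TET1 is known to lower expression. Of 50 tested, V lay above KO in 3 (6%, against 6.19% of all genes) and KO above V in 2 (4%, against 4.92%), so the shares were close to the background. Their median was 0.13, with 29 positive and 20 negative members, and it was 0.03 without KO2, 0.06 without V3 and 0.19 without V1. The 3 were Tex101, Mael and Spo11, given above; lists share members. The 2 were D1Pas1, a DEAD-box helicase (log2 -1.26 ± 0.54), and Rpl10l, a ribosomal protein (log2 -0.79 ± 0.36). Both have near-identical relatives, so their counts are uncertain. Dazl, an RNA-binding protein without which germ cells do not become gametes, was at 553.1, 744.1 and 759.7 CPM in V and 846.2, 608.5 and 702.8 in KO (log2 -0.07 ± 0.19, 95% interval -0.46 to 0.32). WT was at 1923, 1666 and 1207 CPM, above every V and KO library. Ddx4, a germ cell RNA helicase, was at 321.7, 399.6 and 544.2 CPM in V and 494.7, 464.4 and 366.3 in KO (log2 -0.07 ± 0.20). Against WT Dazl fell by 1.22 in V and by 1.15 in KO on the log2 scale (edgeR, adjusted p = 0.00312 and 0.00217).

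Of the same class, 4 further genes, chosen with earlier results of these data known, had lower means in KO with overlapping groups. Brdt, a testis bromodomain protein, was at 12.6, 24.1 and 21.2 CPM in V and 15.8, 6.29 and 9.82 in KO (log2 0.86 ± 0.37). Taf7l, a germ cell transcription factor subunit, was at 6.51, 21.7 and 27.4 CPM in V and 20.98, 6.38 and 10.1 in KO (log2 0.57 ± 0.47). Tdrd1, a Tudor protein of the piRNA pathway, was at 9.997, 28.8 and 29.8 CPM in V and 19.11, 11.2 and 9.29 in KO (log2 0.79 ± 0.37). In all 3, V1 lay within the KO range. Gpat2, which acts in piRNA formation, was at 82.7, 134.3 and 121.6 CPM in V and 70.1, 88.4 and 71.6 in KO (log2 0.56 ± 0.20). Against WT, 16 of the 50 were called lower in KO and 7 in V (edgeR), beside 80 and 14 of all 16166 genes tested. V against KO, the test of that difference, called none.

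The piRNA and transposon-silencing list had a median of -0.03 over 28 genes. V lay above KO in 1, Mael (3.57%, against 6.19% of all genes). KO lay above V in 1 (3.57%, against 4.92%), Piwil1, at 0.53, 1.12 and 0.62 CPM in KO. Morc1, which silences transposons in male germ cells, was at 53.4, 28.5 and 62.1 CPM in V and 61.9, 64.3 and 70.6 in KO (log2 -0.45 ± 0.33), against 11.6, 16.1 and 24.7 in WT. V2 was the lowest of the 6.

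**Figure D4:**
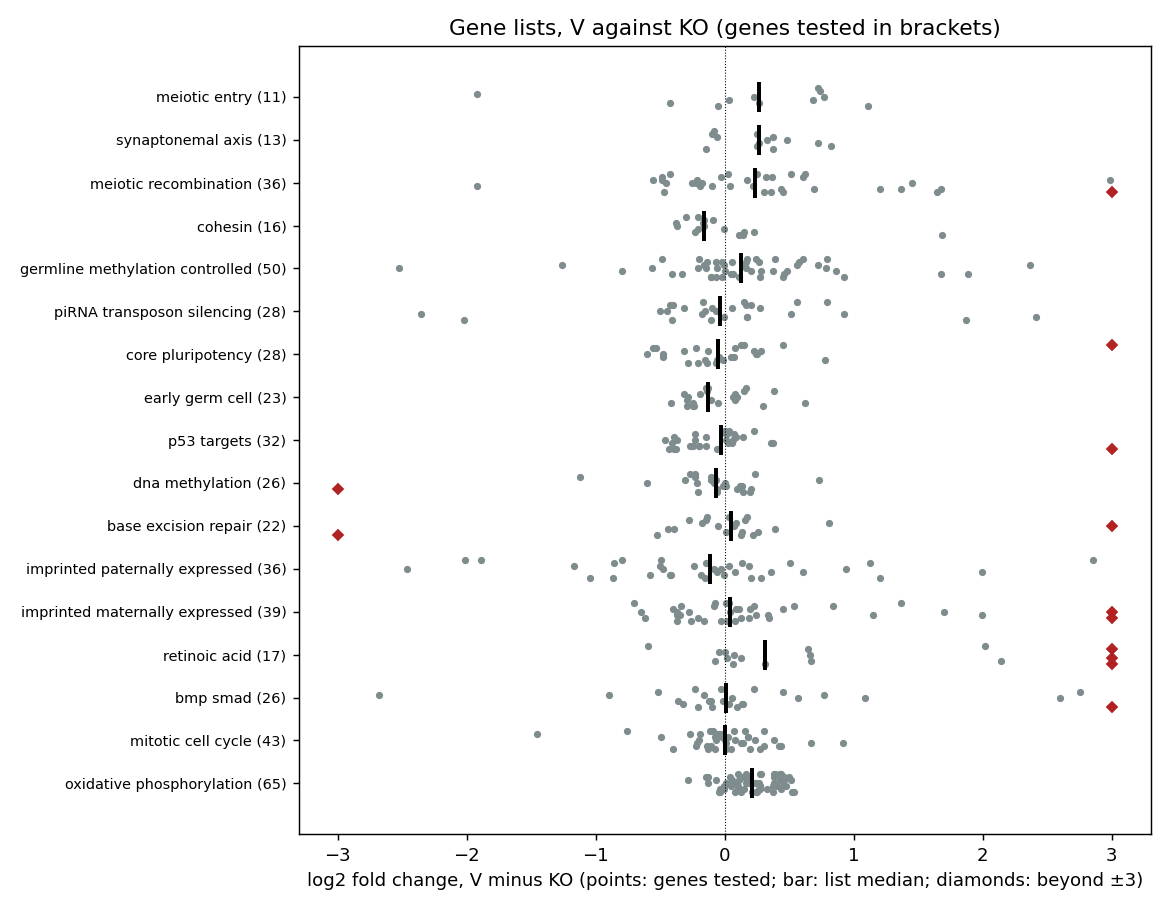
EdgeR log2 fold changes of V over KO for the tested members of 17 gene lists (points), with the list median (bar) and the number of genes tested in brackets; red diamonds at the edge are genes beyond 3 in size. Medians lay between -0.16 (cohesin) and 0.31 (retinoic acid), and no gene of any list was called.

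The 28 tested core pluripotency genes had a median log2 difference of -0.05 and the 23 early germ cell genes one of -0.13. With 1 of the V or KO libraries left out the first ran from -0.22 (without V1) to 0.03 (without KO2) and the second from -0.20 (without V1) to 0.02 (without V2). Pou5f1, the gene of the reporter, was at 747.1, 387.5 and 503.7 CPM in V and 621.3, 401.1 and 357.4 in KO (log2 0.25 ± 0.23). Nanog was at 156.8, 91.0 and 115.8 CPM in V and 137.8, 146.1 and 121.3 in KO (log2 -0.16 ± 0.23), Sox2 at 406.0, 320.0 and 370.8 CPM in V and 392.0, 424.5 and 461.9 in KO (log2 -0.22 ± 0.20), and Esrrb at 284.7, 237.2 and 202.2 CPM in V and 234.4, 321.5 and 234.8 in KO (log2 -0.13 ± 0.26); the groups overlapped for all 4 of these transcription factor genes. Klf5, another pluripotency factor, had KO above V (38.2, 39.3 and 34.6 CPM in V and 42.3, 56.2 and 72.2 in KO, log2 -0.61 ± 0.28). Prdm14, which acts in germ cell specification and represses DNA methyltransferase genes, had V above KO (79.1, 65.8 and 55.2 CPM in V and 34.3, 53.2 and 42.3 in KO, log2 0.62 ± 0.25), against 26.2, 37.2 and 39.3 CPM in WT. Tfap2c and Dppa3, an early germ cell transcription factor and a maternal chromatin protein, had log2 differences of -0.05 ± 0.24 and 0.10 ± 0.19.

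The p53 target list had a median of -0.03 over 32 genes, with 16 positive and 16 negative members. KO lay above V in 4 (12.5%, against 4.92% of all genes) and V above KO in 1 (3.12%, against 6.19%). Gtse1, which restrains p53 in the cell cycle, was at 165.7, 117.0 and 201.5 CPM in V and 206.9, 209.7 and 220.7 in KO (log2 -0.40 ± 0.21), and the others of the 4 were Aen, Perp and Trp53inp1 (log2 -0.38 ± 0.26, -0.39 ± 0.36 and -0.23 ± 0.18). Ccng1, a p53-induced cyclin, was at 88.4, 83.9 and 105.2 CPM in V and 113.8, 97.3 and 148.6 in KO (log2 -0.37 ± 0.21), and both groups lay above WT (45.4, 38.2 and 49.0 CPM). Cdkn1a, the cell cycle inhibitor p21, had a log2 difference of 0.02 ± 0.21 (95% interval -0.41 to 0.45). None of 23 tested genes of the BCL2 family and apoptosis separated the groups (6.19% with V above and 4.92% with KO above over all genes).

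Of 26 tested genes that write, read or remove DNA methylation, V lay above KO in 1, Tet1 (3.85%, against 6.19% of all genes), and KO above V in 3 (11.5%, against 4.92%). Dnmt1, the maintenance methyltransferase, was at 689.7, 690.0 and 689.8 CPM in V and 715.6, 894.9 and 796.1 in KO (log2 -0.22 ± 0.16). Its cofactor Uhrf1 was at 44.7, 56.2 and 54.6 CPM in V and 42.7, 42.2 and 60.4 in KO (log2 0.10 ± 0.22). Dnmt3b, a methyltransferase that sets new marks, was at 2.08, 10.2 and 8.39 CPM in V and 16.3, 13.2 and 15.6 in KO (log2 -1.12 ± 0.63), and Zbtb33, which binds methylated DNA, at 43.0, 55.0 and 47.6 CPM in V and 77.8, 73.4 and 69.5 in KO (log2 -0.60 ± 0.23). Of 22 base excision repair genes, 13 were positive and 9 negative. KO lay above V in 3 (13.6%, against 4.92% of all genes) and V above KO in 1 (4.55%, against 6.19%). Tdg, the glycosylase that removes the further oxidised bases, was at 16.6, 16.9 and 16.1 CPM in V and 18.8, 20.1 and 20.998 in KO (log2 -0.28 ± 0.41). Lig3, a DNA ligase, was at 96.9, 100.5 and 104.6 CPM in V and 116.6, 164.5 and 154.6 in KO (log2 -0.53 ± 0.18), and Parp1, which binds DNA breaks, had a log2 difference of -0.14 ± 0.16; for all 3 KO lay above V. The gene with V above KO was Apobec2, of the APOBEC deaminase family, at 4.66, 4.02 and 2.37 CPM in V and 0.53, 0.66 and 0 in KO (log2 3.19 ± 1.74). The median of the list was 0.05.

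Medians of the repressor complexes linked to TET1 lay near 0. The PRC1.6 list, which represses germline genes, had a median of 0.07 over 18 genes; Mga and Rnf2, 2 of its subunits, had log2 differences of -0.38 ± 0.19 and -0.40 ± 0.19 with overlapping groups. In the PRC2 list (12 genes, median -0.10) Suz12, a core subunit, was at 338.0, 267.2 and 275.9 CPM in V and 363.9, 417.4 and 358.9 in KO (log2 -0.37 ± 0.17), with KO above V. Among 23 TET1 partner genes 3 separated in each direction (13.04% each, against 6.19% with V above and 4.92% with KO above over all genes) and the median was -0.05. Hcfc1, which works with the O-GlcNAc transferase OGT, was at 490.3, 518.2 and 551.1 CPM in V and 596.7, 937.8 and 591.5 in KO (log2 -0.45 ± 0.20), with KO2 far above the other KO libraries. In the H3K9 silencing list (22 genes, median 0.01) Atrx, a chromatin remodeller, was at 463.7, 444.5 and 404.0 CPM in V and 753.3, 739.7 and 436.9 in KO (log2 -0.56 ± 0.21), with overlapping groups. KO lay above V in 1 (4.55%, against 4.92% of all genes), Morc2a (log2 -0.33 ± 0.17). V lay above KO in 3 (13.6%, against 6.19%). These were Suv39h1 and Setdb2, both histone methyltransferases, and Mphosph8, a reader of the mark (log2 0.26 ± 0.17, 1.56 ± 1.39 and 0.38 ± 0.23).

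Imprinted genes lose their parental methylation in germ cells around this stage. The 36 tested genes listed as paternally expressed had a median of -0.12, which ran from -0.21 without V3 to -0.04 without V1. V lay above KO in 1 of them (2.78%, against 6.19% of all genes) and KO above V in 3 (8.33%, against 4.92%). The 39 maternally expressed genes had a median of 0.04, with V above KO in 4 (10.3%) and KO above V in 3 (7.69%). Plagl1, a paternally expressed zinc finger gene, was at 190.3, 240.6 and 202.3 CPM in V and 279.5, 299.8 and 319.1 in KO (log2 -0.50 ± 0.23), and WT was at 58.3, 158.7 and 140.5 CPM. The other separate genes of that list were Usp29 and Tigd5, lower in V (log2 -1.17 ± 0.85 and -2.47 ± 2.26), and Commd1, higher in V (log2 0.36 ± 0.24). The parental allele was not measured, and the place of Commd1 in the paternally expressed list is uncertain. Meg3, a maternally expressed non-coding RNA, was at 19.9, 17.9 and 39.5 CPM in V and 15.4, 16.1 and 11.7 in KO (log2 0.84 ± 0.39). H19, also a maternally expressed non-coding RNA, was at 264.0, 363.0 and 215.1 CPM in V and 176.2, 302.7 and 262.3 in KO (log2 0.18 ± 0.24), Peg3 at 431.7, 420.9 and 324.5 CPM in V and 368.6, 586.7 and 292.9 in KO (log2 -0.08 ± 0.26), and Phlda2 at 359.1, 294.4 and 428.1 CPM in V and 382.1, 358.5 and 568.3 in KO (log2 -0.28 ± 0.21), all with overlapping groups. Osbpl5, at 1.29, 2.72 and 3.36 CPM in V and 0, 0.50 and 0 in KO, had a log2 difference of 3.86 ± 1.89 on few counts.

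Retinoic acid genes had a median of 0.31 over 17 genes, and it was the same, 0.31, with the length trend removed. It ranged from 0.07 to 0.65 over all settings, and was 0.13 without V3, 0.50 without V2 and 0.49 without KO3. The lowest value, 0.07, was that of the 9 members with a mean of at least 5 CPM, so the median leaned on weakly expressed members. V lay above KO in 3 (17.6%, against 6.19% of all genes), Dhrs7 and Cyp26b1 among them, and KO above V in 0 (4.92% over all genes). Cyp26b1, the enzyme that degrades retinoic acid, was at 1.52, 2.52 and 0.74 CPM in V and 0, 0.21 and 0 in KO, near 0 throughout. The list was written with the Dhrs7 values known and is not independent evidence of a direction.

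The BMP list had a median of 0.01 over 26 genes, 13 positive and 13 negative, with 3 separate in each direction (11.5% each, against 6.19% with V above and 4.92% with KO above over all genes). Its 2 genes of smallest p were targets of the pathway. Id1 was at 88.6, 112.8 and 98.3 CPM in V and 58.3, 57.5 and 86.8 in KO (log2 0.57 ± 0.22), and Id3 at 175.4, 204.9 and 229.8 CPM in V and 133.2, 142.7 and 170.5 in KO (log2 0.45 ± 0.18). Both encode inhibitors of helix-loop-helix factors, and in both every V library lay above every KO library. Smad7, an inhibitor of the pathway, had KO above V (log2 -0.36 ± 0.24). Among 25 stress and immediate early genes 3 had V above KO (12%, against 6.19% of all genes). KO lay above V in 0 of them (4.92% over all genes), and their median was 0.23. Hspb1, a small heat shock protein, was at 14.99, 25.9 and 14.9 CPM in V and 4.35, 11.3 and 4.01 in KO (log2 1.503 ± 0.53).

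Mitotic genes had a median of 0.00 over 43 genes, with 4 in which V lay above KO (9.30%, against 6.19% of all genes) and 2 in which KO lay above V (4.65%, against 4.92%). Birc5, a subunit of the chromosomal passenger complex, was at 137.6, 117.0 and 105.2 CPM in V and 75.6, 65.7 and 85.4 in KO (log2 0.67 ± 0.19). Cenpa, the centromeric histone H3 variant, was at 362.4, 316.7 and 294.8 CPM in V and 245.9, 233.1 and 241.1 in KO (log2 0.44 ± 0.17). In the Fanconi list (20 genes, median -0.09) KO lay above V in 3 (15%, against 4.92% of all genes). V lay above KO in 0 (6.19% over all genes). Of the 3, Fancm, a helicase that recruits the repair complex, was at 90.3, 88.9 and 78.1 CPM in V and 114.2, 160.7 and 104.0 in KO (log2 -0.56 ± 0.22). None of 17 oocyte programme genes separated the groups (6.19% with V above and 4.92% with KO above over all genes), and their median was 0.00. The Hox list, with 9 tested genes near 0 CPM, had a median of 1.94 that ranged from 0.35 to 4.33 over the settings. None of its genes separated the groups, beside the same shares over all genes.

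Of 65 tested nuclear genes of oxidative phosphorylation, 55 had a positive log2 difference, and none was called. V lay above KO in 12 (18.5%, against 6.19% of all genes) and KO above V in 0 (4.92% over all genes). The median was 0.21, and it was 0.13 without KO2, 0.14 without V3 and 0.33 without KO3. Cox6b1, a subunit of cytochrome c oxidase, was at 196.8, 211.3 and 191.3 CPM in V and 166.3, 119.3 and 145.4 in KO (log2 0.48 ± 0.19), Sdhb, a subunit of succinate dehydrogenase, at 158.3, 183.2 and 160.5 CPM in V and 139.3, 90.8 and 134.3 in KO (log2 0.46 ± 0.22), and Ndufs3, a subunit of complex I, at 64.2, 89.2 and 62.8 CPM in V and 59.5, 48.6 and 55.6 in KO (log2 0.40 ± 0.22). These are short genes, with a median length of 1231 bases, and the shortest of the 5 length groups had V above KO in 11.8%. With the length trend removed the median of the list was 0.08.

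By position, the 560 tested genes of the X chromosome had a median log2 difference of 0.00, with V above KO in 4.29% and KO above V in 6.61%, against 6.33% and 4.95% of autosomal genes. Of 301 tested genes within 20 Mb of Tet1, 22 had V above KO (7.31%) and 13 had KO above V (4.32%), close to the autosomal shares. None of them was called, and their median was 0.06. Positions came from a RefSeq table of GRCm38.p6 and matched 93.3% of the tested genes by symbol.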

How the data were processed

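The deposited table holds whole-number counts per gene symbol (35976 symbols, 12 libraries), not normalized; per the submitters' processing notes the authors' tools included STAR 2.7.10b, featureCounts 2.0.3, Trim Galore 0.6.7 and SAMtools 1.9. Those notes name GRCm39 and mm10 without a role for either, and no source used here gives the annotation or the strand setting, so overlapping, antisense and near-identical genes are uncertain. Without molecular identifiers, reads are not independent molecules.

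Groups came from the sample titles. Counts were fitted with edgeR 4.0.16 in R 4.3.3 (quasi-likelihood F test, two-sided, TMM, default filterByExpr, all 12 libraries, group as the only term), with Benjamini-Hochberg adjustment over the 16166 genes kept of 22037 with a count, called under 0.05. SEs were derived from each estimate and its F statistic. The steps were run on simulated counts as a check of the code, and the share of changed genes found there is not reported here. DESeq2 1.42.0, limma 3.58.1 and other settings, 24 in all, 1 of them (length trend removed) chosen after seeing the data, were alternatives. Lengths are the longest GENCODE M21 transcript of a symbol.

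Genes named were those called (none), the 10 of smallest p with separate groups and at least 5 CPM in a group mean, the 2 members of smallest p of each of 35 lists, and a list of anchor genes; separate members of lists and others named beside them were chosen after their values were seen. Members and lists were chosen with earlier results of these data known. No set test was run. Some members of lists are not reported here.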

Additional observations from a re-analysis of the deposited data

How the results depend on the processing

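The count of genes changed, V vs KO, higher in V, was 0 in 8 of the 12 alternatives other than single left-out libraries. It was 5 with no filter on low counts, 14 by DESeq2 and 25 in a fit without HxD1, KO1 and KO3, the libraries with most weak genes at 0, where KO2 stands for KO alone and is assumed to vary like the other libraries. The count of genes changed, V vs KO, higher in KO, was 5 by DESeq2 and 9 in the fit without those 3 libraries. Leaving out 1 library at a time gave 0 to 5 genes higher in V (5 without KO2, 2 without V1, 0 without V2 and 1 without each of the other 9) and 0 higher in KO; these fits tested 17159 to 17503 genes, more than the 16166 of the full fit, since the filter asks for fewer libraries. The cause was not tested. With the replicate number as a block, 1 gene, Dhrs7, was called higher in V; same-numbered V and KO libraries correlated in their deviations by 0.01, -0.09 and -0.07, so the numbers were not taken to pair samples. Dhrs7 stayed positive in all 24 alternatives, with a log2 difference from 3.77 to 6.52 and edgeR, DESeq2 or limma adjusted p from 1.84e-19 to 0.903. Of 2588 values of 109 named genes, 25 became called and 0 reversed a call. In 34 named genes that were not called, 69 values changed sign. Replicates of a group differed by at least 30.1 in chi-square per degree of freedom, so none was the same library deposited again. Values of weakly expressed genes are limited by the uneven shares at 0, whose cause was not tested.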

Other observations

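Genes that passed only under another setting are given here as values, chosen after they were seen. With KO2 as the only KO library, meiotic genes were among the 25 called higher in V by edgeR. Stra8 had a log2 difference of 1.96 (adjusted p = 8.69e-08), Sycp3 one of 1.92 (edgeR, adjusted p = 0.0032), and Meioc, which keeps germ cells in meiotic prophase, one of 1.70 (edgeR, adjusted p = 0.000674). Taf7l was at 1.58 and Slc25a31, a mitochondrial ADP/ATP carrier of germ cells, at 1.32 on the log2 scale. Short genes of ATP synthesis and the ribosome stood beside them, with Atp5e at 1.28, Uqcrh at 1.23, Rpl41 at 1.19 and Rpl39 at 1.11. Among the 9 higher in KO2 were genes of long transcripts, Prrc2c at -1.07, Vps13b at -1.04 and Dst at -0.97. Over all 6 libraries the groups overlapped for 23 of these 34 genes, and KO2 had the highest length index of the 12 libraries. The part of transcript length in these calls was not tested.

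The 19 genes called by DESeq2 were all under 5 CPM in both groups, and V and KO libraries overlapped for 15 of them. All KO libraries were at 0 for 14 of them and all V libraries for 5. C1qc, a complement gene of macrophages, was at 5.67, 0 and 0.81 CPM in V and at 0 in every KO library, and the summed macrophage markers were 37.4, 1.0 and 5.1 CPM in those V libraries. Without KO2, edgeR called Rcn3, Camta2, Xlr4c and Col27a1 beside Dhrs7, all higher in V. With no filter on low counts, edgeR called Tex101, Malsu1, Haus4 (log2 0.89) and Spp1 (log2 3.92) beside Dhrs7, all higher in V.

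Neither HxD against KO nor V against HxD held a called gene (edgeR, 0 of 16166 in each). At an unadjusted p under 0.05 there were 514 genes in HxD against KO and 326 in V against HxD, against 747 in V against KO. These comparisons share libraries. Dhrs7 in HxD against KO had a log2 difference of 4.07 ± 0.75 (SE) (edgeR, adjusted p = 0.0673).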
